A study of Saccharomyces cerevisiae with 18 samples.

Results

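The 9 genes described here encode the lower, ATP-yielding part of glycolysis in budding yeast, from glyceraldehyde-3-phosphate dehydrogenase to pyruvate kinase. They were taken by gene symbol from the array annotation, and all 9 of the 9 listed symbols were found among 5650 measured genes, each with 1 probe. The genes are TDH1 (YJL052W), TDH2 (YJR009C), TDH3 (YGR192C), PGK1 (YCR012W), GPM1 (YKL152C), ENO1 (YGR254W), ENO2 (YHR174W), CDC19 (YAL038W) and PYK2 (YOR347C), with locus tags from the RefSeq gene table for assembly R64. RNA of Saccharomyces cerevisiae was hybridised to 18 two-colour arrays in 6 groups of 3. The strains were W303-1A, a laboratory parent strain, and its mutants SM1 and CM1, described by the submitters as ethanol tolerant, with no allele named in the sources used here. Each strain was grown in 3 separate cultures with 0 % and 3 with 6.5 % v/v ethanol, started from unstressed cells taken late in exponential growth. Every array set 1 culture against the same pool of RNA from the 3 W303-1A cultures without ethanol. The time of sampling is not given in the sources used here, nor is whether each mutant is a single clone.

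Glycolysis splits a 6-carbon sugar into pyruvate, and its lower part repays the ATP spent in the upper part. Glyceraldehyde-3-phosphate dehydrogenase is encoded by TDH1, TDH2 and TDH3, of which TDH3 is known as the main gene in cells growing on glucose and TDH1 as the one most tied to stationary phase and stress. PGK1 encodes phosphoglycerate kinase, the first ATP-forming step, and GPM1 encodes phosphoglycerate mutase. Enolase is encoded by ENO1 and ENO2, ENO2 being known as the glucose-induced copy. CDC19 encodes the main pyruvate kinase, the second ATP-forming step, and PYK2 a minor pyruvate kinase that glucose represses. In yeast growing on sugar these transcripts, apart from TDH1 and PYK2, are among the most abundant of the cell, and their promoters are known targets of Gcr1, Gcr2 and Rap1.

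Values are the authors' deposited log ratios, read as log2, of culture over pool. Their log base, centring and direction are not stated, and another base would multiply every value by 1 factor. Replicate 1 of each group carried the dyes the other way round and its sign was turned. That reading is likely rather than certain, and it was judged in part on these genes. TDH2 in CM1 without ethanol stood at 2.61 as deposited on the swapped array and at -2.48 and -2.62 on the normal arrays. PGK1 in W303-1A with ethanol stood at -2.73 on the swapped array and at 2.72 and 2.30 on the normal ones. After turning, all 9 genes had the same sign on the 3 arrays of W303-1A with ethanol, and 8 of 9, all but PYK2, had it in SM1 and in CM1 without ethanol. In the other groups fewer did, 4 of 9 in W303-1A without ethanol, 6 in SM1 and 3 in CM1 with ethanol. The share of all genes with the same sign on the 3 arrays was not counted, so these counts have nothing to be set against. GPM1 in CM1 with ethanol read -0.90 on the swapped array after turning, and 0.25 and 0.05 on the normal ones. The heat shock gene HSP12, at 7.01, 8.12 and 7.92 in W303-1A with ethanol after turning, set which sign means higher. Across all genes, the ethanol change on swapped arrays correlated with that on normal arrays, as deposited, at -0.51 in W303-1A, -0.33 in SM1 and -0.13 in CM1, so the reading is least firm for CM1. The fitted dye term was small for 8 of the 9 genes, between -0.09 and 0.11, and was 0.32 for PYK2. Signal intensities were not used here, so precision rests on the spread between arrays. Probes of TDH and of ENO copies may read each other's transcripts.

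The groups took much the same order in all 9 genes, shown in the plot of the values on every array. W303-1A without ethanol lay near the pool, of which it is the source, with group means from -0.04 for GPM1 to 0.38 for TDH3. W303-1A with ethanol had the highest mean of the 6 groups for all 9 genes, and CM1 without ethanol the lowest. SM1 without ethanol was the next lowest for all 9, although for TDH1 its mean of 0.23 was level with the 0.24 of unstressed W303-1A. Both mutants with ethanol stood close to the pool for PGK1, GPM1, ENO1, ENO2, TDH3 and CDC19, with means from -0.25 to 0.76. RNA was taken from equal numbers of cells and the deposited columns are centred near 0, so a lower value is a lower share of the mRNA, and fewer transcripts per cell cannot be told apart from more of other transcripts.

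**Figure D1:**
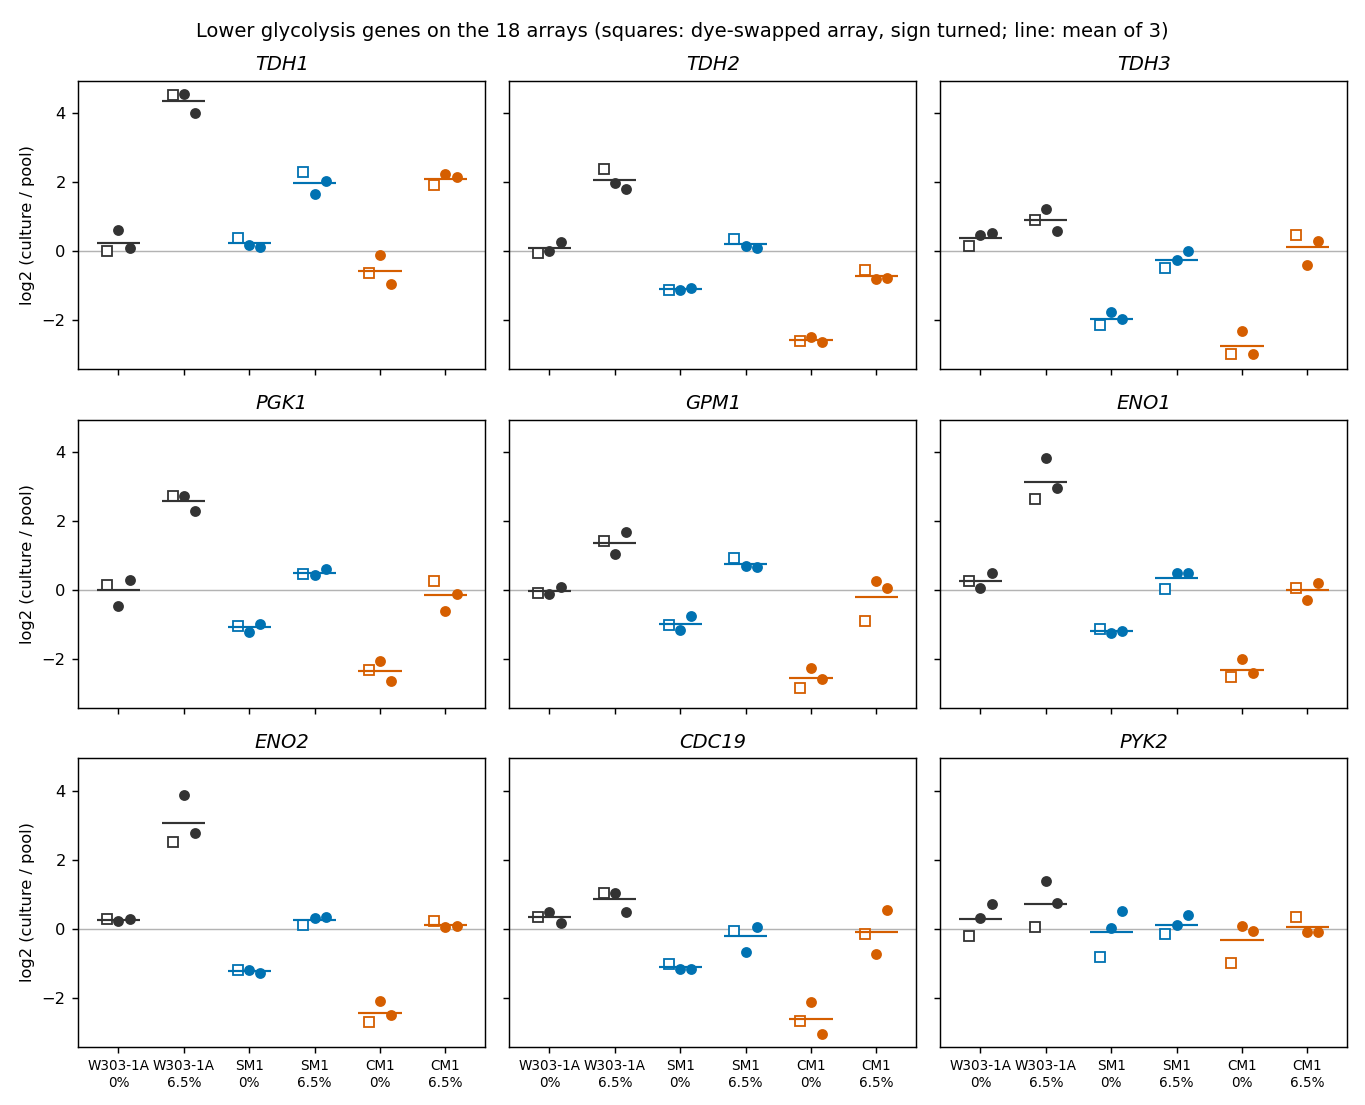
Each panel plots the log2 ratio of culture over pool (y axis) for 1 gene on the 18 arrays by strain and ethanol level (x axis), with circles for normal arrays, open squares for the dye-swapped array after turning and a line at the mean of 3. W303-1A with 6.5 % ethanol lies highest and CM1 without ethanol lowest in all 9 panels, and PYK2 moves least.

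The first question was how ethanol changed these transcripts in the parent. In W303-1A, 6 of the 9 genes rose with 6.5 % ethanol and none fell, against 10.2 % of all genes that rose. TDH1 stood at 0.00 (deposited as exactly 0), 0.61 and 0.11 without ethanol and at 4.54, 4.56 and 4.02 with it, without overlap. Its log2 difference of 4.13 ± 0.27 (SE from limma, 3 arrays in each group, adjusted p = 4.2e-07) ranked number 6 of 5650 genes by size. The other risers were ENO1, ENO2, PGK1, TDH2 and GPM1, the genes of 3 of the 4 later steps and of a second dehydrogenase copy. ENO1 went from 0.27, 0.07 and 0.49 to 2.63, 3.83 and 2.95, a difference of 2.86 ± 0.27. ENO2 went from 0.27, 0.21 and 0.28 to 2.51, 3.88 and 2.77, a difference of 2.80 ± 0.27. Replicate 2 was the highest of the ethanol arrays for both enolase genes.

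PGK1 read 0.14, -0.47 and 0.29 without ethanol and 2.73, 2.72 and 2.30 with it, and its difference was 2.60 ± 0.25 (adjusted p = 1.13e-05). TDH2 rose by 1.97 ± 0.19 and GPM1 by 1.42 ± 0.27 (adjusted p = 0.00148). The main dehydrogenase gene and both pyruvate kinase genes did not pass. TDH3 stood at 0.14, 0.47 and 0.54 without and at 0.92, 1.23 and 0.60 with ethanol, so that the groups did not overlap, yet its difference of 0.53 had a 95 % interval from -0.05 to 1.11 (adjusted p = 0.172). CDC19 differed by 0.52 (-0.17 to 1.21, adjusted p = 0.267) and PYK2 by 0.45 (-0.20 to 1.10, adjusted p = 0.315). The median over the 9 genes was 1.97, and that of all genes 0.03. The count stayed at 6 without any single array of these groups.

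In SM1, 7 of the 9 genes rose with ethanol and none fell, against 2.83 % of all genes that rose. The 7 rises were alike in size, from 1.31 ± 0.19 for TDH2 to 1.76 ± 0.27 for TDH1 (adjusted p = 0.00109 and 0.00135). TDH1 went from 0.38, 0.19 and 0.13 to 2.30, 1.65 and 2.03, the only gene of the 9 whose SM1 arrays with ethanol all stood above 1. TDH3 rose by 1.71 ± 0.27 (adjusted p = 0.00195), from -2.14, -1.77 and -1.97 to -0.48, -0.26 and 0.01. GPM1 rose by 1.73 ± 0.27, PGK1 by 1.58 ± 0.25, ENO1 by 1.52 ± 0.27 and ENO2 by 1.47 ± 0.27. CDC19 moved from -1.01, -1.17 and -1.17 to -0.06, -0.67 and 0.06, without overlap, and did not pass (0.89, 95 % interval 0.20 to 1.58, adjusted p = 0.149). It passed with array weights (0.88, adjusted p = 0.0436) and with quantile normalization (1.15, adjusted p = 0.0387). PYK2 differed by 0.21 (-0.44 to 0.86, adjusted p = 0.798). The median over the 9 genes was 1.52, beside 0.00 for all genes.

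In CM1 8 of the 9 genes rose and none fell, against 3.88 % of all genes that rose. TDH3 rose most, by 2.88 ± 0.27 (adjusted p = 1.74e-05), from -2.97, -2.32 and -2.97 to 0.48, -0.39 and 0.30, and ranked number 14 of 5650 genes by size. TDH1 went from -0.62, -0.11 and -0.96 to 1.93, 2.23 and 2.16, a rise of 2.67 ± 0.27. CDC19, the main pyruvate kinase gene, rose in this strain by 2.51 ± 0.32 (adjusted p = 0.000237), from -2.69, -2.13 and -3.04 to -0.15, -0.73 and 0.55. ENO2 rose by 2.55 ± 0.27, GPM1 by 2.36 ± 0.27, ENO1 by 2.31 ± 0.27, PGK1 by 2.19 ± 0.25 and TDH2 by 1.86 ± 0.19. For each of these 8 genes every ethanol array stood above every array without ethanol. As the 8 were picked by their calls, this adds little, and the share over all genes was not counted. PYK2 again did not pass (0.38, 95 % interval -0.28 to 1.03, adjusted p = 0.527). The median was 2.36, and -0.01 over all genes. A fit to the 6 CM1 arrays alone kept 5 of the 8 calls and lost TDH2, PGK1 and CDC19 (adjusted p = 0.0517, 0.0644 and 0.0849).

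**Figure D2:**
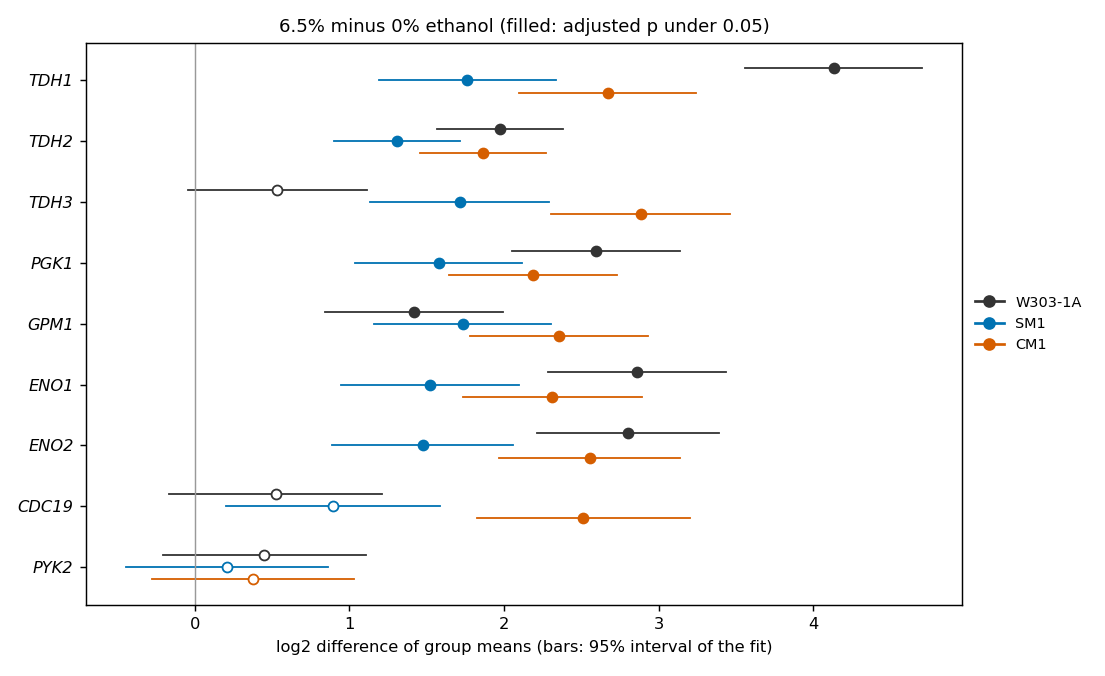
The x axis is the log2 difference between 6.5 % and 0 % ethanol for each of the 9 genes (y axis), with the 95 % interval of the fit as a bar, 1 colour per strain and filled points for an adjusted p under 0.05. TDH1 has its largest difference in W303-1A (4.13), whereas TDH3 and CDC19 have theirs in CM1 (2.88 and 2.51).

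The next question was how the mutants differed from the parent before any ethanol was added. In SM1 6 of the 9 genes were lower than in W303-1A and none was higher, against 1.56 % of all genes that were lower. TDH3 differed most, at -2.14, -1.77 and -1.97 in SM1 against 0.14, 0.47 and 0.54 in the parent, a difference of -2.34 ± 0.27 (adjusted p = 0.000244) that ranked number 10 of 5650 genes by size. ENO2 (-1.48 ± 0.27), ENO1 (-1.46 ± 0.27), CDC19 (-1.44 ± 0.32), TDH2 (-1.18 ± 0.19) and PGK1 (-1.07 ± 0.25) were lower too. The 3 arrays of SM1 were close together, with TDH2 at -1.12, -1.11 and -1.07 and ENO2 at -1.21, -1.19 and -1.27. GPM1 was at -1.02, -1.15 and -0.76, below all parent arrays, and did not pass (-0.93, 95 % interval -1.51 to -0.36, adjusted p = 0.118). TDH1 showed a difference of -0.01 (-0.58 to 0.56, adjusted p = 0.995), and PYK2 of -0.37 (adjusted p = 0.722). The median over the 9 genes was -1.18, and 0.00 over all genes.

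Several of these calls were lost when single arrays of either group were left out, with the differences in the same direction. Without replicate 1 or replicate 3 of W303-1A, or without replicate 2 or replicate 3 of SM1, 2 of the 6 remained, TDH2 and TDH3, while the differences of ENO1, ENO2 and CDC19 stayed between -1.52 and -1.37 and that of PGK1 between -1.15 and -0.88. The CDC19 call was lost in all 6 fits that left out 1 array (adjusted p from 0.0852 to 0.163), and the PGK1 call in 5 of the 6, without replicate 2 of W303-1A being the exception. With no dye term CDC19 (adjusted p = 0.0738) and PGK1 (adjusted p = 0.145) were lost, and with only the groups compared PGK1 was (adjusted p = 0.108).

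In CM1 the difference before ethanol was larger. Of the 9 genes 7 were lower than in W303-1A and none was higher, against 1.12 % of all genes that were lower. TDH3, at -2.97, -2.32 and -2.97, differed from the parent by -3.14 ± 0.27 (adjusted p = 1.13e-05), which was the largest absolute difference of the 5650 genes in this comparison. CDC19, at -2.69, -2.13 and -3.04, followed as number 2 with -2.95 ± 0.32 (adjusted p = 0.000101). ENO2 (-2.69 ± 0.27), TDH2 (-2.65 ± 0.19), ENO1 (-2.59 ± 0.27), GPM1 (-2.51 ± 0.27) and PGK1 (-2.33 ± 0.25) took the ranks from 9 to 18. In every one of these 7 genes all 3 CM1 arrays stood below all 3 parent arrays, by over 1 log2 unit. These 7 were also picked by their calls, and the share of all genes so separated was not counted. The 2 genes that did not pass were the stress-linked TDH1 (-0.80, 95 % interval -1.38 to -0.23, adjusted p = 0.206) and the glucose-repressed PYK2 (-0.61, -1.26 to 0.05, adjusted p = 0.462). The count of 7 was the same without any single array of the 2 groups. The median over the 9 genes was -2.59, and 0.00 over all genes. Both mutants were set against the same 3 parent cultures, so these 2 comparisons share their control.

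CM1 was also below SM1 without ethanol at 5 of the 9 genes, against 0.195 % of all genes that were lower. GPM1 differed by -1.58 ± 0.27 (adjusted p = 0.00935), CDC19 by -1.50 ± 0.32, TDH2 by -1.47 ± 0.19 (adjusted p = 0.00218), PGK1 by -1.26 ± 0.25 and ENO2 by -1.22 ± 0.27 (adjusted p = 0.0493). ENO1, at -2.53, -2.00 and -2.42 in CM1 and -1.13, -1.23 and -1.18 in SM1, did not overlap and missed the threshold (-1.14, adjusted p = 0.0659). TDH1 (-0.79, adjusted p = 0.404), TDH3 (-0.79, adjusted p = 0.424) and PYK2 (-0.24) did not pass. TDH2 was the call that every fit without 1 array kept. It stood alone without replicate 1 or 3 of SM1 or replicate 1 or 3 of CM1, and with GPM1 it made 2 without replicate 2 of SM1 (4 calls without replicate 2 of CM1). With no dye term PGK1, ENO2 and CDC19 were lost (adjusted p = 0.0517, 0.105 and 0.0577), and ENO2 also with median centring (adjusted p = 0.0507). ENO1 was called with quantile normalization (-1.24, adjusted p = 0.0298), with array weights and with only the groups compared.

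The mutants were also compared with the parent with ethanol in all cultures. In SM1 7 of the 9 genes were lower than in W303-1A, against 7.19 % of all genes that were lower. The enolase genes differed most, ENO2 by -2.80 ± 0.27 and ENO1 by -2.79 ± 0.27 (adjusted p = 2.59e-05 and 2.51e-05). TDH1 was lower by -2.38 ± 0.27, PGK1 by -2.08 ± 0.25 and TDH2 by -1.85 ± 0.19. TDH3 (-1.16 ± 0.27, adjusted p = 0.00904) and CDC19 (-1.07 ± 0.32, adjusted p = 0.0333) were lower by less. The CDC19 call was lost without replicate 1 or 2 of W303-1A or replicate 1 or 2 of SM1 (adjusted p between 0.0631 and 0.125), and it was also lost with quantile normalization (-0.90, adjusted p = 0.0872), with the probe trend removed (-0.72, adjusted p = 0.166), with no dye term (adjusted p = 0.0563) and with only the groups compared (adjusted p = 0.0733). The TDH3 call was lost with quantile normalization (-0.94, adjusted p = 0.0688). GPM1 (-0.62, adjusted p = 0.133) and PYK2 (-0.61, adjusted p = 0.195) did not pass. The median over the 9 genes was -1.85, and -0.01 over all genes.

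In CM1 with ethanol 6 of the 9 genes were lower than in the parent, against 5.29 % of all genes that were lower. ENO1 was at 0.07, -0.30 and 0.21 in CM1 and at 2.63, 3.83 and 2.95 in W303-1A, a difference of -3.14 ± 0.27 (adjusted p = 9.68e-06). ENO2 (-2.94 ± 0.27), TDH2 (-2.76 ± 0.19), PGK1 (-2.74 ± 0.25), TDH1 (-2.26 ± 0.27) and GPM1 (-1.58 ± 0.27) were lower as well. With only the groups compared the GPM1 call was lost (adjusted p = 0.0883). CDC19 (-0.96, 95 % interval -1.65 to -0.27, adjusted p = 0.0670) and TDH3 (-0.79, -1.37 to -0.21, adjusted p = 0.0728) missed the threshold. TDH3 passed without replicate 1 of CM1 (-1.05, adjusted p = 0.0229), as did PYK2 (-1.10, adjusted p = 0.0149), and CDC19 passed without replicate 3 of CM1 (-1.32, adjusted p = 0.0164). The 9 genes had a median of -2.26, and all genes one of -0.01.

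Between the mutants with ethanol, 1 of the 9 genes passed, against 1.17 % of all genes that were lower in CM1. TDH2 was at -0.55, -0.80 and -0.76 in CM1 and at 0.35, 0.16 and 0.11 in SM1, a difference of -0.91 ± 0.19 (adjusted p = 0.0244). That call was lost with quantile normalization (adjusted p = 0.0937), with no dye term (adjusted p = 0.0742) and with only the groups compared (adjusted p = 0.410). Without any 1 of the SM1 arrays it was lost too (adjusted p between 0.0522 and 0.0696), and without replicate 2 of CM1 GPM1 passed too (-1.15, adjusted p = 0.0410). The 95 % intervals of the other genes that did not pass were over 1 log2 unit wide. They ran from -1.53 to -0.38 for GPM1, from -0.46 to 0.69 for TDH1 and from -0.57 to 0.81 for CDC19, the widest.

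**Figure D3:**
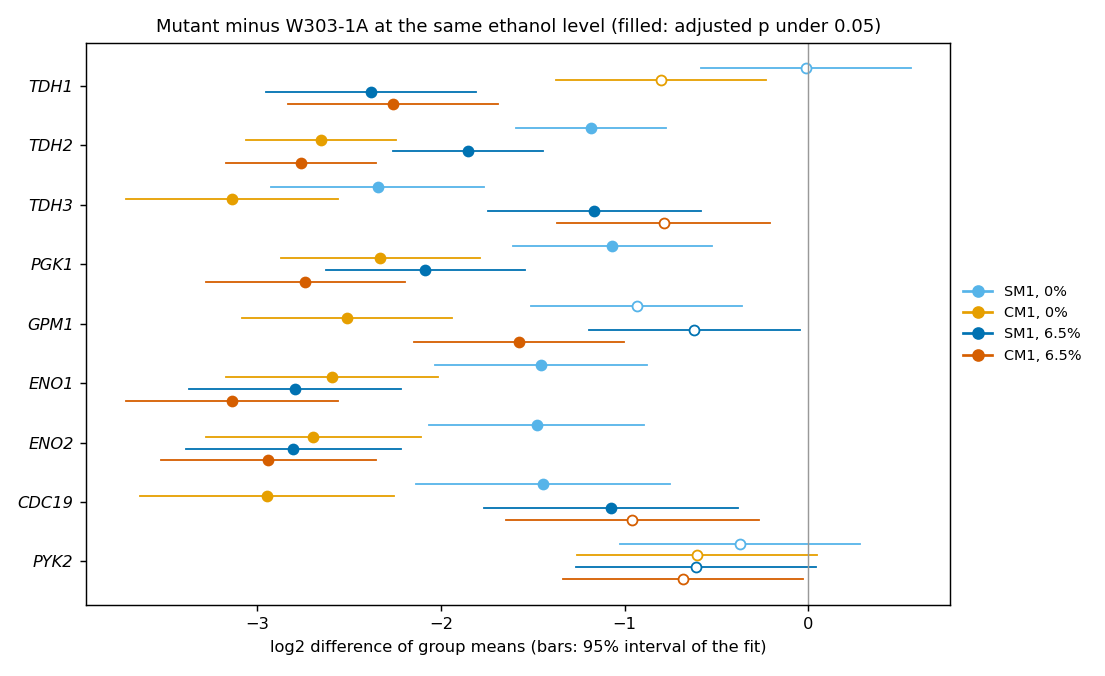
The x axis is the log2 difference of each mutant from W303-1A at the same ethanol level for the 9 genes (y axis), with the 95 % interval of the fit as a bar and filled points for an adjusted p under 0.05. Without ethanol TDH3 and CDC19 lie lowest in CM1 (-3.14 and -2.95), and with ethanol ENO1 does (-3.14), while PYK2 has no filled point.

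Whether strains differed in their response to ethanol was tested as a difference of differences, which has a wider error and rests on the same arrays as the comparisons above. For SM1 against W303-1A, 1 of the 9 genes was called, against 1.82 % of all genes that were lower. TDH1 rose in SM1 by 2.37 ± 0.38 less than in the parent (adjusted p = 0.00312), and this call held in every fit that left out 1 array. ENO1 (-1.34, adjusted p = 0.0511) and ENO2 (-1.33, adjusted p = 0.0550) narrowly missed the threshold and were called without replicate 1 of W303-1A with ethanol (-1.55 and -1.57, adjusted p = 0.0305 and 0.0281) and with array weights (adjusted p = 0.0175 and 0.0172). TDH3 differed the other way, by 1.18 (95 % interval 0.36 to 2.00, adjusted p = 0.0820), and was called with quantile normalization (2.14, adjusted p = 0.0168), with array weights (1.29, adjusted p = 0.0175) and with only the groups compared (adjusted p = 0.0479). The other 5 genes had differences between -1.02 and 0.37.

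For CM1 against W303-1A 3 of the 9 genes were called, in opposite directions. TDH3 rose by 2.35 ± 0.38 more in CM1 (adjusted p = 0.00409) and CDC19 by 1.99 ± 0.46 more (adjusted p = 0.0221), against 3.45 % of all genes that were higher. TDH1 rose by 1.46 ± 0.38 less (adjusted p = 0.0374), against 1.2 % of all genes that were lower. TDH3 was called in every fit without 1 array. The TDH1 call was lost without 8 of the 12 arrays, 1 at a time (adjusted p up to 0.105), and the CDC19 call without replicate 2 of W303-1A at 0 %, replicate 3 of W303-1A with ethanol, or replicate 1 or 3 of CM1 at 0 % (adjusted p between 0.0527 and 0.0709). Without replicate 1 of CM1 with ethanol, GPM1 was called too (1.27, adjusted p = 0.0321). With quantile normalization TDH1 was lost (-1.17, adjusted p = 0.159) and GPM1 called (1.91, adjusted p = 0.0277, beside 0.94 and 0.161 without it). TDH1 and CDC19 were both lost with no dye term (adjusted p = 0.0861 and 0.0502) and with only the groups compared (adjusted p = 0.0932 and 0.0679). PGK1, TDH2, ENO1, ENO2 and PYK2 had differences between -0.55 and -0.08.

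Between CM1 and SM1 the limma fit called 0 of the 9 responses as different, against 0.336 % of all genes in either direction. The largest estimates were CDC19 (1.62, 95 % interval 0.64 to 2.59, adjusted p = 0.208), TDH3 (1.17, adjusted p = 0.313), ENO2 (1.08, adjusted p = 0.359) and TDH1 (0.91, adjusted p = 0.443). The lowest was 0.17 for PYK2. The median over the 9 genes was 0.79, and -0.03 over all genes. CDC19 was called with array weights (2.08, adjusted p = 0.0280).

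Copies of 1 enzyme could be compared within an array, where a shift common to all genes of that array cancels. A difference in spread between arrays does not cancel. The SD of the deposited columns ran from 0.51 (W303-1A without ethanol, replicate 1) to 1.19 (CM1 with ethanol, replicate 2). The pair tests were not repeated with quantile normalization. TDH1 minus TDH2, the difference of their log2 ratios to the pool, averaged 0.16 ± 0.39 (SD, n = 3) in W303-1A without ethanol and 2.31 ± 0.24 with it. In SM1 it went from 1.33 ± 0.15 to 1.79 ± 0.25 and in CM1 from 2.01 ± 0.36 to 2.81 ± 0.29. Its mean change with ethanol over the 3 strains was 1.14, with p = 0.00116 in an exact two-sided permutation test within strain and dye orientation, the smallest p that the 1728 arrangements allow, and 0.00579 adjusted over the 5 pairs. The ethanol arrays of W303-1A and of CM1 all stood above those without ethanol, whereas in SM1 the lowest value with ethanol was 1.49 and the highest without it 1.50.

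TDH1 minus TDH3 averaged -0.14 ± 0.28 without and 3.45 ± 0.15 with ethanol in the parent. The mutants' means went from 2.19 ± 0.29 to 2.24 ± 0.47 for SM1 and from 2.19 ± 0.17 to 1.98 ± 0.59 for CM1. The mean change over the strains, 1.14, did not pass (exact permutation p = 0.110, 0.183 adjusted over the 5 pairs). Both mutants thus stood at about 2 log2 units without ethanol, where all parent arrays lay between -0.43 and 0.14. Those parent cultures made up the pool, so their values lie near 0 by design. The contrast of the mutants with the parent was not tested. TDH2 minus TDH3 moved in opposite directions by strain. It went up from -0.30 ± 0.13 to 1.14 ± 0.37 in the parent, and down from 0.86 ± 0.18 to 0.45 ± 0.37 in SM1 and from 0.19 ± 0.30 to -0.84 ± 0.37 in CM1, without overlap in the parent and in CM1. These changes cancel in the mean over strains, 0.00 (exact permutation p = 0.985), and the difference between strains was not tested.

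The enolase copies gave nearly the same value on every array. ENO1 minus ENO2 lay between -0.35 and 0.21 on all 18 arrays, and its mean change with ethanol was -0.05 (exact permutation p = 0.588). As the 2 coding sequences are known to be close and each gene has 1 probe, equal change of both genes and shared hybridisation cannot be told apart. PYK2 minus CDC19 changed by -0.96 with ethanol on average (exact permutation p = 0.0104, 0.0260 adjusted over the 5 pairs). W303-1A had -0.05 ± 0.55 without and -0.12 ± 0.74 with ethanol. The values of SM1 were 1.03 ± 0.76 and 0.34 ± 0.43, and those of CM1 2.29 ± 0.65 and 0.15 ± 0.69. The average change thus came mostly from CM1, the only strain whose arrays with and without ethanol did not overlap. The difference between strains was not tested.

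**Figure D4:**
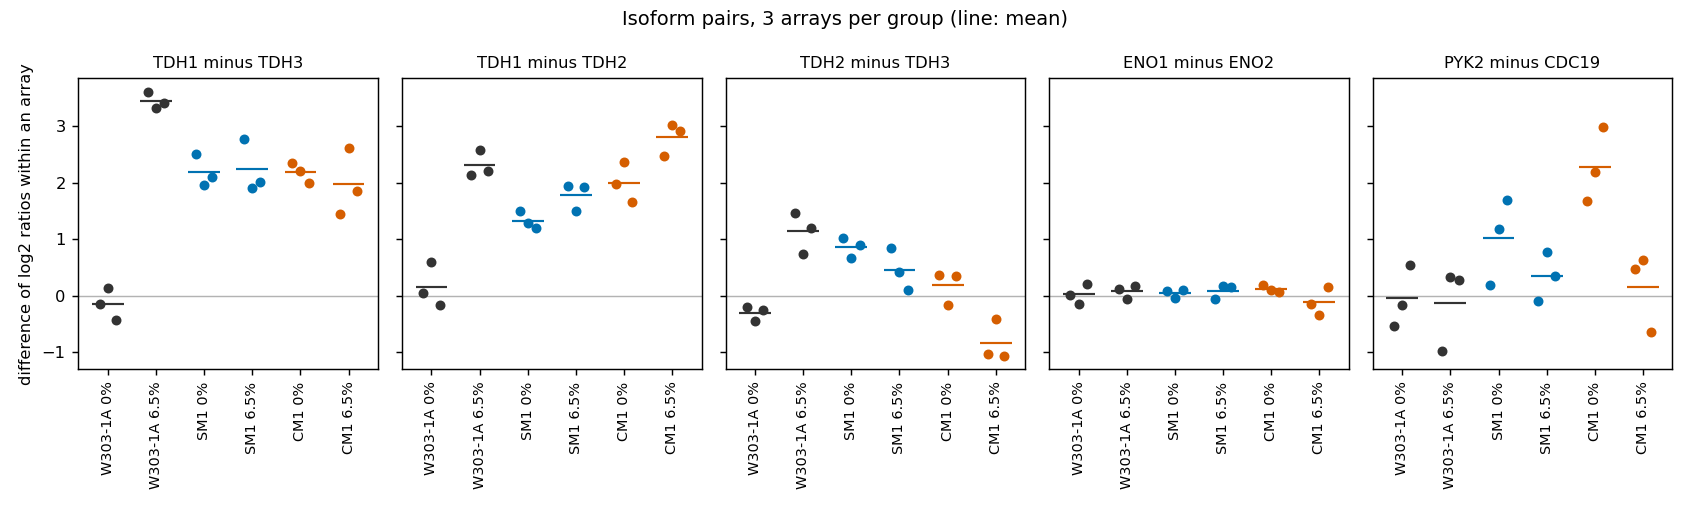
Each panel plots the difference between the log2 ratios of 2 genes on the same array (y axis) for the 6 groups (x axis), with 3 points per group and a line at their mean. W303-1A without ethanol is the source of the pool, so its differences lie near 0 by design. TDH1 minus TDH3 is near 0 in that group only, ENO1 minus ENO2 stays between -0.35 and 0.21 throughout, and PYK2 minus CDC19 is highest in CM1 without ethanol (2.29).

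PYK2 was the member that passed in none of the 12 comparisons. Its highest group mean was 0.73 ± 0.66 in W303-1A with ethanol and its lowest -0.33 ± 0.58 in CM1 without ethanol, and neighbouring groups in the order of its means overlapped at each of the 5 steps. The swapped array was the lowest of its 3 in 5 of the 6 groups, beside the dye term of 0.32. For CDC19 the order ran CM1 at 0 %, SM1 at 0 %, SM1 with ethanol, CM1 with ethanol, W303-1A at 0 % and W303-1A with ethanol, and the last 4 groups overlapped with their neighbours. TDH2 had the smallest residual SD of the 9 genes, 0.159, and its values overlapped between neighbours only for W303-1A at 0 % and SM1 with ethanol. For TDH1 the overlapping neighbours were SM1 and W303-1A at 0 %, and SM1 and CM1 with ethanol. ENO1, ENO2 and PGK1 shared the pattern of CM1 at 0 %, then SM1 at 0 %, then the groups near the pool, with W303-1A with ethanol well above the rest. Over the 18 arrays with the dye term removed, the 21 pairs among the 7 genes other than TDH1 and PYK2 correlated at 0.85 to 1.00, those with TDH1 at 0.61 to 0.91 and those with PYK2 at 0.59 to 0.78. These correlations share groups and pool and describe likeness only.

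The neighbouring steps of the pathway moved in part with the 9 genes. Of 8 upper glycolysis genes, 3 rose and 2 fell with ethanol in W303-1A, against 10.2 % of all genes that rose. Of all genes called in that comparison 42.8 % were higher, so falls were the more common call and their share of all genes was above 10.2 %. TPI1, triose phosphate isomerase (1.53 ± 0.24), GLK1, glucokinase (1.53 ± 0.25), and HXK1, hexokinase 1 (1.10 ± 0.34), rose. HXK2, the main hexokinase gene on glucose (-0.98 ± 0.28), and PFK1, a phosphofructokinase subunit (-0.93 ± 0.31), fell. In SM1 FBA1, aldolase (1.34 ± 0.25), rose, 1 of 8, against 2.83 % of all genes that rose, and HXK2 (-1.72 ± 0.28) fell. In CM1 FBA1 (2.16 ± 0.25), TPI1 (1.41 ± 0.24), HXK1 (1.40 ± 0.34) and PGI1, phosphoglucose isomerase (1.22 ± 0.28), rose, 4 of 8, against 3.88 % of all genes. The upper medians were 0.37, -0.21 and 0.93 in W303-1A, SM1 and CM1, beside 1.97, 1.52 and 2.36 in lower glycolysis. That contrast between upper and lower genes was not tested.

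Without ethanol, PGI1 was lower in SM1 than in the parent (-1.31 ± 0.28), 1 of 8 upper genes, against 1.56 % of all genes. In CM1 4 of 8 were lower, against 1.12 % of all genes. These were FBA1 (-2.81 ± 0.25), PGI1 (-2.20 ± 0.28), TPI1 (-1.88 ± 0.24) and PFK2 (-1.20 ± 0.22). CM1 was below SM1 at FBA1 (-1.86 ± 0.25). With ethanol in all strains, SM1 was below the parent at TPI1 (-1.71 ± 0.24), PGI1 (-1.37 ± 0.28) and GLK1 (-1.10 ± 0.25), and CM1 at TPI1 (-2.00 ± 0.24), FBA1 (-1.34 ± 0.25) and PGI1 (-1.03 ± 0.28). These were 3 of 8 upper genes in each mutant, against 7.19 % of all genes for SM1 and 5.29 % for CM1. HXK1 was higher in CM1 than in the parent (1.45 ± 0.34) and than in SM1 (1.94 ± 0.34), and FBA1 lower in CM1 than in SM1 (-1.03 ± 0.25). GLK1 rose less in SM1 than in the parent, by 1.53 ± 0.35, and FBA1 rose more in CM1, by 1.47 ± 0.36.

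After pyruvate, PDC1, the main pyruvate decarboxylase gene, fell with ethanol (W303-1A, -1.03 ± 0.27; SM1, -1.07 ± 0.27), while ADH1, the main fermentative alcohol dehydrogenase gene, rose in the parent (1.66 ± 0.32) and CM1 (1.38 ± 0.32). PDC1 and ADH1 were both lower in CM1 than in the parent without ethanol (-2.26 ± 0.27 and -2.20 ± 0.32) and with it (-2.12 ± 0.27 and -2.49 ± 0.32). CM1 was below SM1 at both without ethanol (-1.35 ± 0.27 and -1.50 ± 0.32) and at PDC1 with ethanol (-1.17 ± 0.27). In SM1 both were below the parent with ethanol (-0.95 ± 0.27 and -1.77 ± 0.32). PDC5 and PDC6 passed in none of the 12 comparisons.

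Of the 2 genes of gluconeogenesis, FBP1, fructose-1,6-bisphosphatase, fell with ethanol in W303-1A (-0.88 ± 0.20) and CM1 (-0.83 ± 0.20) and was higher in SM1 than in the parent with ethanol (0.67 ± 0.20), and PCK1 did not pass in any comparison. Among 5 homologs of the members, GPM2, a mutase homolog, rose with ethanol in W303-1A (3.18 ± 0.55) and was lower than there in SM1 (-2.00 ± 0.55) and CM1 (-2.18 ± 0.55) with ethanol. GPM3 and the enolase-related ERR1, ERR2 and ERR3 did not pass. Of the 4 regulators, RAP1 fell with ethanol in the parent (-1.54 ± 0.37) and SM1 (-1.82 ± 0.37), while GCR1, GCR2 and TYE7 did not pass in any comparison.

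**Figure D5:**
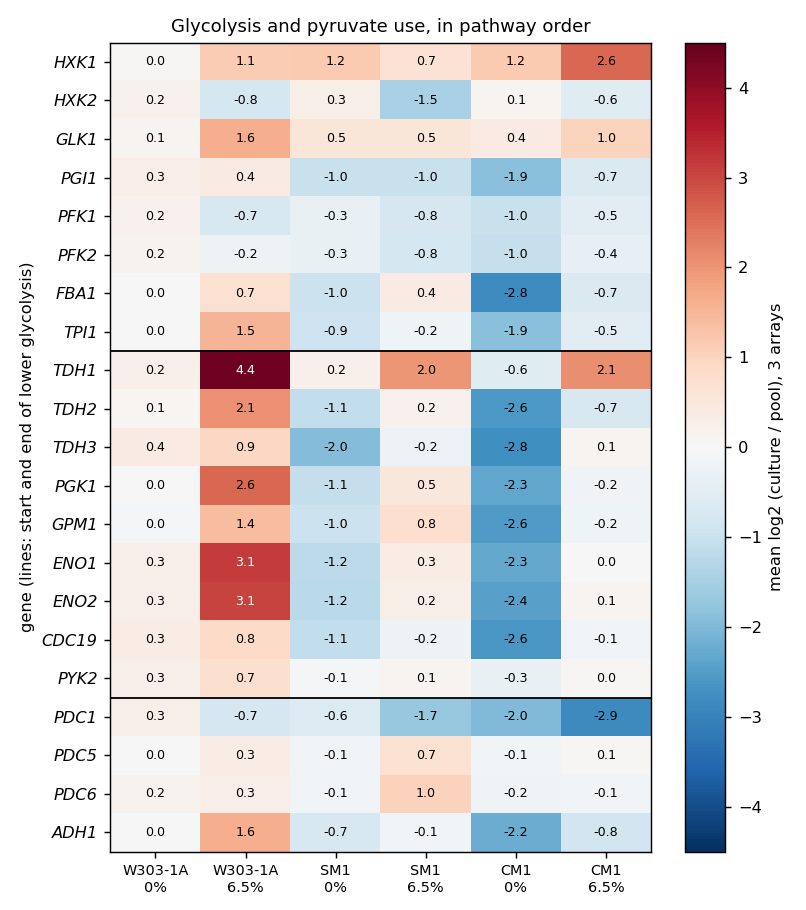
The map gives the mean log2 ratio of culture over pool of 3 arrays (colour and printed value) for the genes from hexokinase to alcohol dehydrogenase in pathway order (rows) and the 6 groups (columns), with lines around lower glycolysis. The column of CM1 without ethanol is low from FBA1 (-2.8) to CDC19 (-2.6) except for TDH1 (-0.6), and PDC1 is lowest in CM1 with ethanol (-2.9).

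The genes outside the set whose pattern over the 18 arrays was most like the mean of the 9 were found by Pearson correlation with the dye term removed. They were PCD1, a nudix hydrolase gene (0.96), TPI1 (0.96), PFY1, profilin (0.95), DIP5, an amino acid permease gene (0.95), and SOD1, the copper-zinc superoxide dismutase gene (0.94). PCD1 ranged over group means from -1.33 in CM1 without ethanol to 0.51 in W303-1A with ethanol, a narrower span than that of TPI1, from -1.89 to 1.52. For PYK2 alone the nearest were IPK1, an inositol phosphate kinase gene (0.82), COQ4, of ubiquinone synthesis (0.80), and YHR112C (0.80), all lower than for the mean of the set.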

How the data were processed

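The deposited table held 1 column per array with log ratios of the 2 dye channels for 6368 probes and 0 missing values. Per the labels, the authors labelled culture and pool with opposite dyes; their background correction and normalization are not given in the sources used here. The authors' deposited log ratios are read as log2, and scanner signals were not used. Probes with 1 gene symbol numbered 5673, with several 0 and with none 695; the latter were left out. The 23 genes with 2 probes were averaged, which gave 5650 genes.

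The 6 swapped arrays were multiplied by -1. A linear model in limma 3.58.1 (R 4.3.3) was fitted to all 18 arrays with a mean per group and a dye term, followed by empirical Bayes moderation, with Benjamini-Hochberg adjustment over 5650 genes and a threshold of 0.05. The fit was tried on simulated arrays with independent noise, which cannot test the sign turn or a batch shared by arrays. Isoform pairs were tested by exact permutation. Other settings were no sign turn, median centring, quantile normalization, removal of a loess trend along the probe number (span 0.3), no dye term, a replicate block, only the groups compared, array weights and leaving out each array.

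The members and gene lists were chosen with earlier results of these data known. All 9 members were named, with fixed lists of other pathway genes, of which those that passed were named, and the genes most like the set. Replicates were separate cultures.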

Additional observations from a re-analysis of the deposited data

Results flagged for a closer look

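The responses to ethanol that differed between strains by the test of the difference itself are gathered here. TDH1 rose less than in W303-1A in SM1 (-2.37) and in CM1 (-1.46). The CM1 call was lost with quantile normalization, with no dye term, with only the groups compared and without some single arrays. TDH3 (2.35) and CDC19 (1.99) rose more in CM1 than in W303-1A. The CDC19 call was lost with no dye term, with only the groups compared and without some single arrays. Without ethanol both TDH3 and CDC19 were lower in CM1 than in W303-1A (-3.14 and -2.95). With ethanol their differences did not pass (-0.79 and -0.96). Among the other glycolysis genes, GLK1 had a smaller response in SM1 (-1.53) and FBA1 a larger one in CM1 (1.47). Each response difference is a log2 difference of differences over 12 arrays in 4 groups.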

How the results depend on the processing

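Not turning the swapped arrays gave 0 member calls in all 12 comparisons, and TDH1 minus TDH2 (0.46, exact permutation p = 0.259) and PYK2 minus CDC19 (-0.53, exact permutation p = 0.225) lost theirs. With the signs turned, median centring, quantile normalization, removal of the probe trend, no dye term, the replicate block, the groups compared alone and array weights left 712 member values with the same call, made 16 new calls and lost 28, and no called value changed sign; 12 uncalled ones did. CM1 minus SM1 without ethanol had 5 member calls, against 2 with no dye term, 3 with the replicate block, which replaces the dye term, and 8 with array weights. CM1 minus SM1 with ethanol had 1, and 0 with quantile normalization, no dye term or the groups compared alone. The response in SM1 against W303-1A had 1, against 2 with quantile normalization, where TDH3 was added (2.14, adjusted p = 0.0168), 4 with array weights and 2 with the groups compared alone. The response in CM1 against W303-1A had 3, and 1, TDH3, with no dye term or the groups compared alone; with quantile normalization it had 3 with GPM1 in place of TDH1. SM1 minus W303-1A without ethanol had 6, and 4 with no dye term. The response in CM1 against SM1 had 0, and 1 with array weights. The CM1 ethanol comparison had 8, and 5 with the groups compared alone. The cause of these changes was not tested.

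Leaving out single arrays kept the member count at 6 in the W303-1A, 7 in the SM1 and 8 in the CM1 ethanol comparison and at 7 in CM1 minus W303-1A without ethanol. It ranged from 2 to 5 in SM1 minus W303-1A and from 1 to 4 in CM1 minus SM1 without ethanol. With ethanol it ranged from 6 to 7, 6 to 8 and 0 to 2 in SM1 minus W303-1A, CM1 minus W303-1A and CM1 minus SM1. It was 1 to 3 in both responses against W303-1A and 0 to 0 between the mutants' responses.

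Replicate numbers shared between groups were read as names of samples only. Differences of replicates 2 and 3 correlated between groups at -0.17 to 0.09, with 0 of 15 pairs over 0.1. That check leaves out replicate 1, which was the swapped array in every group. A batch shared by the replicate 1 arrays therefore cannot be told apart from the dye term. The replicate block kept 4 of the 6 calls in SM1 minus W303-1A without ethanol, PGK1 and CDC19 being lost (adjusted p = 0.0646 and 0.0520).

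Counts over all genes moved more. Calls for ethanol in W303-1A numbered 1349, and 791 with no dye term, 873 with quantile normalization and 933 to 1226 without single arrays. For CM1 they numbered 317, against 142 with no dye term, 602 with array weights and 19 with its own groups alone. For SM1 they numbered 231, against 112, 799 and 289. For SM1 and CM1 minus W303-1A without ethanol they numbered 98 and 69, against 34 and 42 with no dye term, 324 and 268 with quantile normalization and 483 and 360 with array weights. For CM1 minus SM1 without ethanol they numbered 57, against 31, 154 and 273. With ethanol, SM1 minus W303-1A had 989 and CM1 minus W303-1A 692, against 545 and 185 with quantile normalization, and CM1 minus SM1 had 138, against 41. The responses against W303-1A had 360 and 263, against 106 and 74 with no dye term, and 870 and 518 with array weights; between the mutants they had 19, against 5 and 75. Under quantile normalization the share of calls that were higher went from 69.3 to 59.1 % for ethanol in SM1, from 10.2 to 31.5 % and from 8.70 to 27.2 % for SM1 and CM1 minus W303-1A without ethanol, and from 80.7 to 67.5 % for CM1 minus SM1 without ethanol. Without replicate 1 of CM1 with ethanol, CM1 minus W303-1A with ethanol had 1048 calls and its response 577. The number of arrays limits the precision, and signal over background was not used here.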
